A study of Mus musculus with 14 samples.

Results

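The genes examined here encode trophic factors and receptors of dopaminergic neurons: the ligands Bdnf and Fgf20, and the receptors Ret, Gfra1, Gfra2, Ntrk2, Ntrk3 and Ngfr. They were taken by name, and every probe set that carries one of the 8 symbols was used, which gave 32 of the 45037 probe sets tested and 8 of the 18193 genes named on the array. A probe set is a group of short probes that together read one stretch of a transcript. Ntrk2 and Ntrk3 each had 8 probe sets, Gfra2 had 5, Gfra1 and Ngfr 3, Ret and Bdnf 2, and Fgf20 had 1.

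The libraries came from mouse ventral midbrain, where ribosomes of dopaminergic neurons carry an epitope tag (RiboTag), so that the mRNA they are translating can be immunoprecipitated from a lysate of the tissue. Tfr1-null mice (Tfr1ΔDN) lack transferrin receptor 1, the receptor for iron-loaded transferrin encoded by Tfrc, in dopaminergic neurons, and control mice were heterozygous for the Tfr1 allele. All groups shared the RiboTag background and an F2 background of 129Sv and C57BL/6. There were 4 Tfr1-null and 3 control libraries at 3 weeks of age, and 3 Tfr1-null and 4 control libraries at 10 weeks. The sources used here do not give the driver of the deletion, the deleted exons, the sexes, or whether each library was 1 animal or a pool. The p-values below therefore measure the spread between libraries, part of which may be technical.

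GDNF family ligands bind a GFRα co-receptor (Gfra1 or Gfra2), and the complex activates the receptor tyrosine kinase RET. BDNF binds TrkB (Ntrk2) and neurotrophin-3 binds TrkC (Ntrk3), while the p75 receptor (Ngfr) binds all neurotrophins. In the midbrain these pathways are known for the support of dopaminergic neurons, and FGF20 is a fibroblast growth factor known for a transcript enriched in the substantia nigra of the rat. Ntrk2 also has a form without the kinase domain that astrocytes make.

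The labels of 2 libraries were doubtful. The library titled Tfr1-null 3 weeks 1 has a source name that says control, and the probe set for the 5′ end of Tfrc read 9.67 log2 units in it. That probe set read 6.88 to 7.73 in the other Tfr1-null libraries of that age and 9.50 to 9.59 in the controls. The library titled Control 10 weeks 1 read 11.43 at the middle probe set of Tfrc, beside 11.39 to 11.69 in Tfr1-null libraries and 9.17 to 9.86 in the other controls. These probe sets differ in direction. Apart from the doubtful libraries, the 5′ probe set read lower in Tfr1-null than in control at both ages. The middle and 3′ probe sets read higher. The reason was not tested. Over the 32 member probe sets, Tfr1-null 3 weeks 1 lay nearer to the mean of the controls in 22 and nearer to the mean of the other Tfr1-null libraries in 10. Control 10 weeks 1 lay nearer to the Tfr1-null mean in 22 and nearer to the mean of the other controls in 10. These counts describe values that are tested below, and they did not decide which libraries were left out. Many of the probe sets share a gene. At 3 weeks the means of the 2 groups could be almost equal, as at Ntrk2 1420838_at (10.5002 in Tfr1-null and 10.5007 in control). The fit without the 2 libraries of doubtful label holds 12 libraries, 3 in each group. Values of the fit to all 14 as labelled are given beside it, for some genes as a range or a count. No library was moved to another group. The median signal of an array was 6.41 to 6.47 log2 units at 3 weeks but 7.36 to 7.43 at 10 weeks, so levels were compared within an age alone. By X- and Y-linked transcripts, Control 3 weeks 2 was the 1 library of 7 with a male pattern at 3 weeks, and all 7 libraries of 10 weeks had it. The sex pattern thus nearly followed age. A change of the Tfr1-null effect between ages cannot be told apart from a difference between the sexes.

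Promoter windows of 300 bases around a transcript start were taken from RefSeq (build GRCm38.p6) for 4 of the 8 members: Bdnf with 7 windows, and Gfra1, Ngfr and Ntrk2 with 1 each. Ret, Gfra2, Ntrk3 and Fgf20 had no match. Printed are the Ntrk2 window and the 1 of 7 Bdnf windows with matches to all 3 motifs searched, since Ntrk2 and Bdnf, a receptor and its ligand, both had a probe set that passed the test at 10 weeks. Capitals mark the motifs ACGTG and GCGTG, cores of the element bound by hypoxia-inducible factors, and TGACG, the half-site of the cAMP response element bound by CREB, on either strand.
Ntrk2 window, chr13:58806319-58806618, plus strand: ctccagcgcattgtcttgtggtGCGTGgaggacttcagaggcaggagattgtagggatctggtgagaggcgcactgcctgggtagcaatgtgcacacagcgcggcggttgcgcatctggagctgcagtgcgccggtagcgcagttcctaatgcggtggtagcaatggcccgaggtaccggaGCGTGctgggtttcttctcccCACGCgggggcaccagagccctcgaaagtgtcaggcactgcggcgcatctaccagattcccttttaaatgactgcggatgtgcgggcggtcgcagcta
Bdnf window, chr2:109692186-109692485, plus strand: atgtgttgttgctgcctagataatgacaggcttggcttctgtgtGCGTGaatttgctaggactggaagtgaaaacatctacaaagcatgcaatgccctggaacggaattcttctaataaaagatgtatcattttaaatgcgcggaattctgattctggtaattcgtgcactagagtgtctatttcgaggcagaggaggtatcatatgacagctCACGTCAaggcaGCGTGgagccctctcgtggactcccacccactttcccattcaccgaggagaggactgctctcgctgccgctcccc
The Ntrk2 window held 3 matches to GCGTG and 0 to the others. The Bdnf window held 2 matches to GCGTG and 1 each to ACGTG and TGACG, which overlap each other. Of the 10 member windows, 3 held ACGTG, 4 held GCGTG and 1 held TGACG. Among all 32851 windows of this length, 19.6% held ACGTG, 32.4% held GCGTG and 20.8% held TGACG. A match is a description of these letters and not of a bound site.

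At 10 weeks Fgf20 was the member with the largest difference, lower in Tfr1-null than in control, and in the fit to 12 libraries it passed the test together with 1 probe set of Bdnf, also lower, and 1 of Ntrk2, higher. That is 3 of the 32 member probe sets (9.38%) at an adjusted p under 0.05, where 6.76% of all probe sets passed. With the 14 libraries as labelled 0 of 32 passed in limma, where 0.377% of all probe sets passed, and 8 of 32 had an unadjusted p under 0.05, as did 17.2% of all probe sets. At 3 weeks 0 of 32 passed in limma in either fit, while 0.797% of all probe sets passed in the 12 libraries and 0% in the 14. At an unadjusted p under 0.05 the count was also 0 of 32 in both, where 8.09% of all probe sets lay in the 12 libraries and 3.62% in the 14.

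One Ntrk2 probe set, 1446712_at, was not above background in 1 or both groups at either age, which leaves 31 with a measured difference. In the 12 libraries these ranged from -1.88 to 0.93 log2 units at 10 weeks with a median of 0.19, against a median of 0.00 over all probe sets. Of the 31, 24 were positive, where 50.5% of all probe sets were. Ntrk2 gave 6 and Ntrk3 gave 8 of the 24, and probe sets of 1 gene are not independent. At 3 weeks the 31 ranged from -0.31 to 0.20 with a median of 0.01, and 16 were positive, where 51.1% of all probe sets were. Tfr1-null and control libraries did not overlap for 7 of the 31 at 10 weeks, 5 higher and 2 lower in Tfr1-null, where 18.8% of all probe sets did not overlap. At 3 weeks they did not overlap for 7, 1 higher and 6 lower, where the share of all probe sets was 20.1%. The shares of members without overlap are near those of all probe sets.

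**Figure D1:**
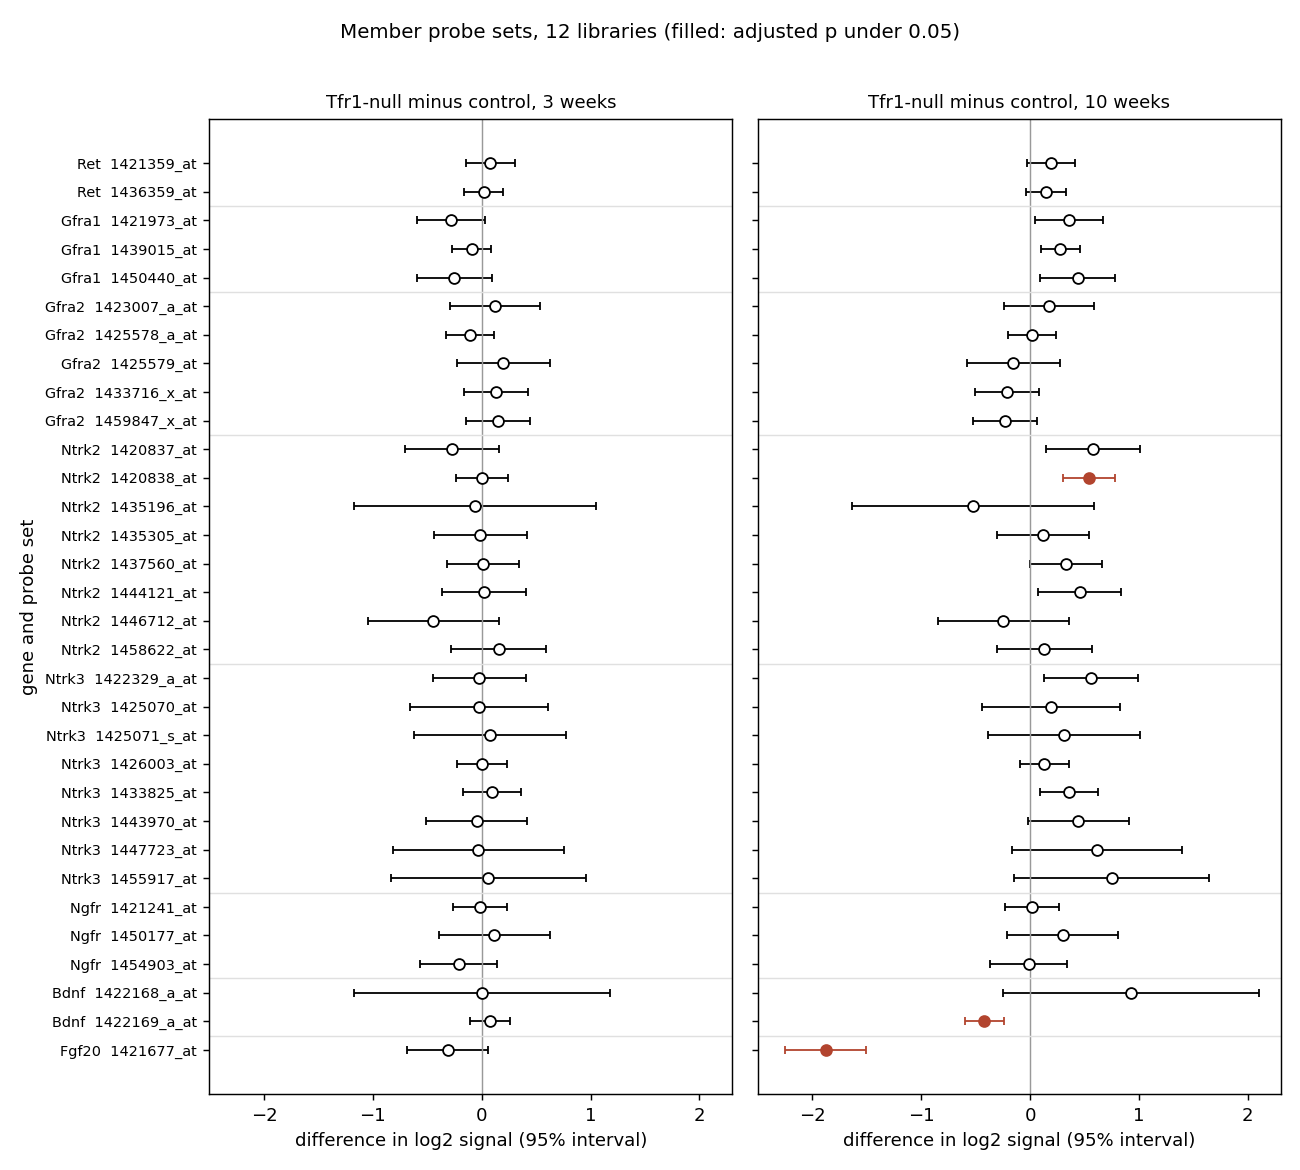
Difference in log2 signal between Tfr1-null and control (x axis, Tfr1-null minus control) with its 95% interval, for the 32 member probe sets (y axis) at 3 weeks (left) and 10 weeks (right), fitted on 12 libraries with 3 in each group. Ntrk2 1446712_at was not above background and its points are no measured difference. Filled points passed at an adjusted p under 0.05: none at 3 weeks, and at 10 weeks Fgf20 (-1.88), Bdnf 1422169_a_at (-0.42) and Ntrk2 1420838_at (0.54).

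Fgf20, the ligand, was read by 1421677_at. At 10 weeks it read 7.36, 7.88 and 7.21 log2 units in Tfr1-null libraries, against 7.39, 9.49, 9.21 and 9.38 in controls 1 to 4. Controls 2 to 4 all lay above every Tfr1-null library, whereas Control 10 weeks 1, the library of doubtful label, lay within the Tfr1-null range. In the 12 libraries Fgf20 averaged 7.48 ± 0.35 in Tfr1-null and 9.36 ± 0.14 in control (SD, n = 3 each), and it fell by 1.88 (SE 0.17, 95% interval -2.25 to -1.51, limma adjusted p = 0.000246), a 3.68-fold lower signal. With the 14 libraries as labelled the difference was -1.39 (SE 0.40, adjusted p = 0.115). The summed level of 12 dopaminergic markers, as log2 of their summed signal, was also lower, at 16.93 to 17.16 in Tfr1-null and 17.26 to 17.33 in control in the same 12 libraries, and 16.95 in Control 10 weeks 1. The part of that difference in the Fgf20 value was not tested.

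At 3 weeks Fgf20 read 8.23, 8.14, 8.24 and 7.88 in Tfr1-null libraries 1 to 4 and 8.30, 8.44 and 8.45 in the controls. All 4 Tfr1-null libraries lay below every control, by a margin of less than 0.1 log2 units at the closest pair. The difference was -0.31 (SE 0.17, adjusted p = 0.766) in the 12 libraries and -0.28 (SE 0.40, adjusted p = 1.00) in the 14. The Tfr1-null effect at 10 weeks minus that at 3 weeks was -1.57 (SE 0.24, 95% interval -2.10 to -1.04, adjusted p = 0.0419) in the 12 libraries, where 0.14% of all probe sets passed this test. Leaving out any 1 library other than Tfr1-null 10 weeks 2 ended that call, at differences of -1.43 to -1.67 and adjusted p of 0.0603 to 0.169, and in the 14 libraries it was -1.11 (adjusted p = 0.738; 0% of all probe sets passed). Age and the sex pattern of the libraries cannot be told apart in this change.

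Bdnf, the ligand of TrkB, was read by 2 probe sets that differed in direction at 10 weeks. Probe set 1422169_a_at read 8.41, 8.31 and 8.32 in Tfr1-null libraries, against 8.41, 8.82, 8.79 and 8.68 in controls 1 to 4. Controls 2 to 4 lay above every Tfr1-null library and Control 10 weeks 1 lay just above the highest of them. In the 12 libraries the signal averaged 8.35 ± 0.05 in Tfr1-null and 8.77 ± 0.07 in control (SD, n = 3 each), and it fell by 0.42 (SE 0.08, 95% interval -0.60 to -0.24, adjusted p = 0.0142). With 14 libraries the difference was -0.33 (SE 0.11, adjusted p = 0.155).

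The brighter Bdnf probe set, 1422168_a_at, read 12.57, 10.01 and 9.99 in Tfr1-null libraries at 10 weeks and 10.03, 9.82, 9.96 and 10.01 in controls 1 to 4. A single library, Tfr1-null 10 weeks 1, stood above all others, and the remaining libraries overlapped. The difference of 0.93 (SE 0.53, adjusted p = 0.349) in the 12 libraries was 0.07 (adjusted p = 0.761) without that library, and it was 0.90 (adjusted p = 0.337) in the 14. At 3 weeks the same probe set read 9.19 to 9.40 in Tfr1-null and 9.21 to 9.34 in control, and 1422169_a_at read 7.97 to 8.27 in Tfr1-null and 8.11 to 8.16 in control. The 12-library differences at 3 weeks were 0.01 (SE 0.53, adjusted p = 1.00) and 0.08 (SE 0.08, adjusted p = 0.977). The sources used here do not say which Bdnf transcripts each probe set reads. Bdnf is known to be transcribed from several promoters onto a shared coding exon.

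**Figure D2:**
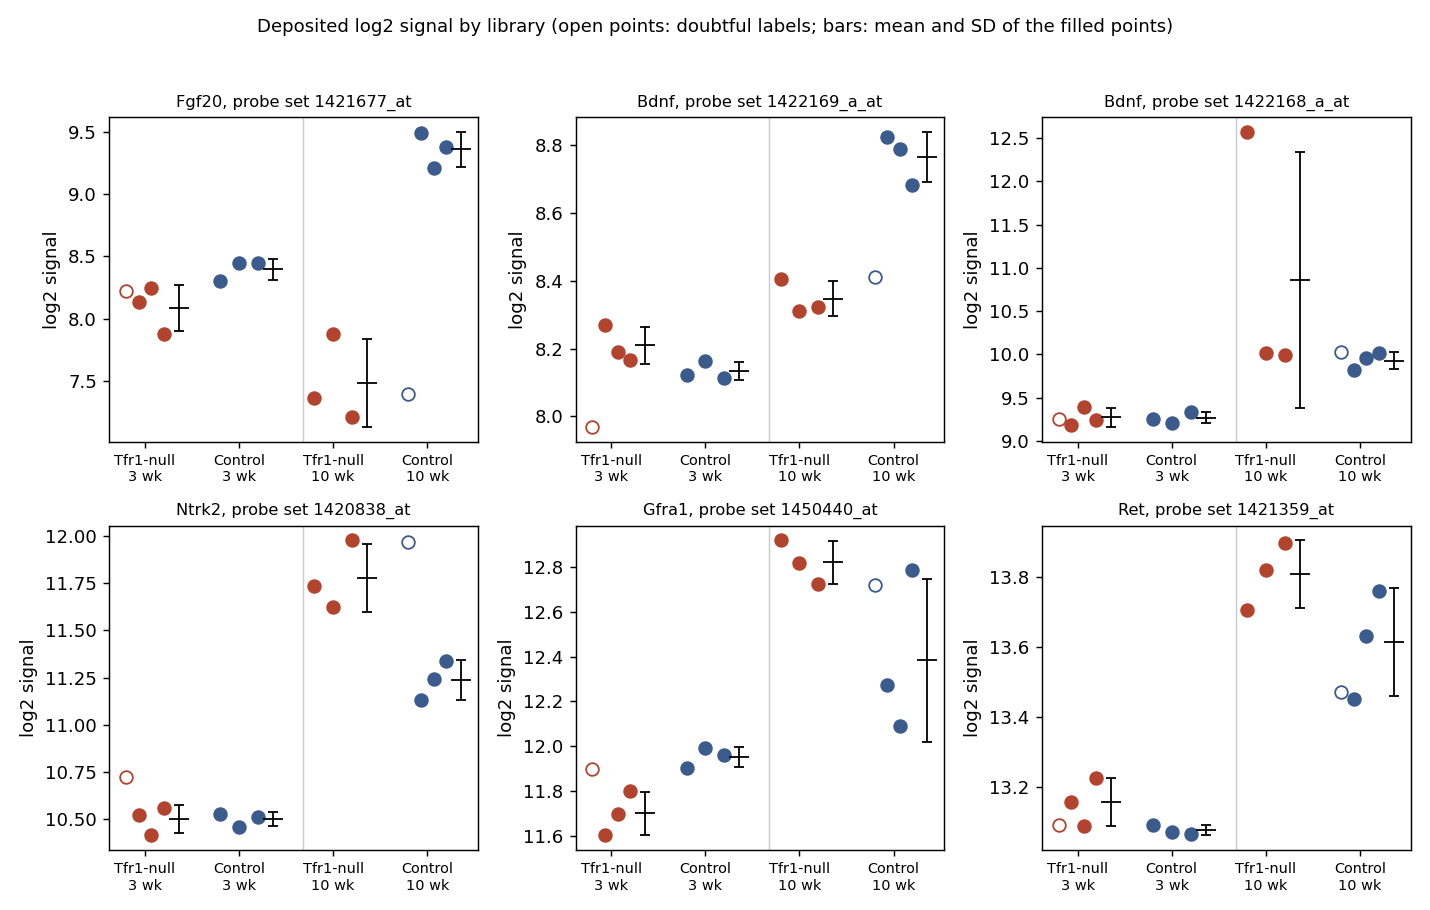
Deposited log2 signal (y axis) of 6 member probe sets in each of the 14 libraries, by group (x axis), with open points for the libraries of doubtful label and bars for the mean and SD of the filled points. Fgf20 read 7.21 to 7.88 in Tfr1-null and 9.21 to 9.49 in controls 2 to 4 at 10 weeks, and the Bdnf panel at upper right shows the single value of 12.57.

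Among the GDNF family receptors, no probe set of Ret, Gfra1 or Gfra2 passed the test at either age. Ret, the signalling receptor, read 13.71, 13.82 and 13.90 in Tfr1-null libraries at 10 weeks at 1421359_at, its brighter probe set, and 13.47, 13.45, 13.63 and 13.76 in controls 1 to 4. The groups overlapped there through Control 10 weeks 4. The difference was 0.19 (SE 0.10, 95% interval -0.03 to 0.41, adjusted p = 0.296) in 12 libraries and 0.23 (SE 0.09, adjusted p = 0.234) in 14. At 3 weeks Ret read 13.09 to 13.23 in Tfr1-null and 13.07 to 13.09 in control, a difference of 0.08 (SE 0.10, adjusted p = 0.991). The other Ret probe set, 1436359_at, read 13.69, 13.81 and 13.65 in Tfr1-null libraries at 10 weeks and 13.49, 13.61, 13.49 and 13.61 in controls 1 to 4. All Tfr1-null libraries lay above all 4 controls, the doubtful one included. The difference was 0.15 (SE 0.08, adjusted p = 0.342) in 12 libraries, with an adjusted p of 0.284 in the 14, and at 3 weeks it was 0.02 (SE 0.08, adjusted p = 1.00) in the 12.

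Gfra1, the co-receptor that prefers GDNF, read 12.92, 12.82 and 12.73 in Tfr1-null libraries at 10 weeks at 1450440_at, and 12.72, 12.27, 12.09 and 12.79 in controls 1 to 4. Control 10 weeks 4 lay within the Tfr1-null range and controls 2 and 3 lay below it. The 12-library difference was 0.44 (SE 0.16, 95% interval 0.09 to 0.78, adjusted p = 0.127), and it was 0.64 (adjusted p = 0.00913) without Control 10 weeks 4, the only 1 of 18 settings of that fit in which it passed. At 3 weeks the sign was opposite: 11.90, 11.60, 11.70 and 11.80 in Tfr1-null libraries 1 to 4 against 11.90, 11.99 and 11.96 in control, a difference of -0.25 (SE 0.16, adjusted p = 0.845) in 12 libraries.

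All 3 Gfra1 probe sets had these signs at both ages. Probe set 1439015_at read 12.34, 12.35 and 12.26 in Tfr1-null libraries at 10 weeks and 12.28, 12.00, 12.09 and 12.05 in controls 1 to 4, and differed by 0.28 (SE 0.08, adjusted p = 0.0667) in 12 libraries. Probe set 1421973_at differed by 0.35 (SE 0.14, adjusted p = 0.169). Their 3-week differences were -0.09 (adjusted p = 0.948) and -0.29 (adjusted p = 0.705). The change of the Gfra1 effect between ages was 0.69 (SE 0.22) at 1450440_at, 0.37 (SE 0.11) at 1439015_at and 0.64 (SE 0.20) at 1421973_at, with adjusted p of 0.301, 0.283 and 0.288. In the 14 libraries the 3 probe sets differed by 0.22 to 0.35 at 10 weeks, with a lowest adjusted p of 0.219, and each had an adjusted p of 0.697 for the change between ages.

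Gfra2, the co-receptor that prefers neurturin, read 12.20, 12.44 and 12.72 in Tfr1-null libraries at 10 weeks at 1425579_at, and 12.43, 12.60, 12.21 and 13.02 in controls 1 to 4. The groups overlapped fully, with a difference of -0.15 (SE 0.19, adjusted p = 0.705) in 12 libraries. Its other 4 probe sets lay between -0.23 and 0.18, and the lowest adjusted p of the 5 was 0.355. In the 14 libraries the 5 lay between -0.21 and 0.20, and 0 passed in limma, with 0 at an unadjusted p under 0.05. At 3 weeks the 5 lay between -0.10 and 0.20, with a lowest adjusted p of 0.951.

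Among the neurotrophin receptors, 1 of the 8 probe sets of Ntrk2 passed the test at 10 weeks. Probe set 1420838_at read 11.74, 11.62 and 11.98 in Tfr1-null libraries, against 11.97, 11.13, 11.24 and 11.34 in controls 1 to 4. Controls 2 to 4 lay below every Tfr1-null library, and Control 10 weeks 1 lay at the upper end of the Tfr1-null range. In the 12 libraries it averaged 11.78 ± 0.18 in Tfr1-null and 11.24 ± 0.10 in control (SD, n = 3 each), and it rose by 0.54 (SE 0.11, 95% interval 0.30 to 0.78, adjusted p = 0.0150). With the 14 libraries the difference was 0.36 (SE 0.17, adjusted p = 0.306). At 3 weeks it read 10.72, 10.52, 10.42 and 10.56 in Tfr1-null libraries 1 to 4 and 10.53, 10.46 and 10.51 in control, a 12-library difference of 0.00 (SE 0.11, adjusted p = 1.00). The change of this effect between ages was 0.54 (SE 0.15, adjusted p = 0.247).

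The other Ntrk2 probe sets did not pass. Probe set 1420837_at differed by 0.58 (SE 0.19, adjusted p = 0.109) in 12 libraries and 0.40 (adjusted p = 0.448) in 14, reading 10.19, 9.88 and 10.77 in Tfr1-null libraries and 10.40, 9.57, 9.66 and 9.88 in controls 1 to 4. The brightest, 1435305_at, read 12.23, 12.20 and 12.24 in Tfr1-null, against 12.20, 12.20, 11.59 and 12.53 in controls 1 to 4, a difference of 0.12 (SE 0.19, adjusted p = 0.781) in 12 libraries. The 3 Tfr1-null libraries were close together there, while the controls spread over almost 1 log2 unit. With the opposite sign, 1435196_at read 9.89, 9.45 and 10.27 in Tfr1-null, against 11.71, 11.86, 10.05 and 9.26 in controls 1 to 4. The difference was -0.53 (SE 0.50, adjusted p = 0.602) in 12 libraries and -0.86 (adjusted p = 0.414) in 14. Without Control 10 weeks 2 the 12-library difference at that probe set turned to 0.21 (adjusted p = 0.689). Probe set 1446712_at lay under the 25th percentile of its array in all 3 Tfr1-null and all 4 control libraries at 10 weeks and in all 4 Tfr1-null libraries at 3 weeks, so it was not above background there and gives no fold. The sources used here do not say which Ntrk2 forms each probe set reads.

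Ntrk3, the receptor of neurotrophin-3, had a positive difference at 10 weeks in all 8 probe sets in both fits, but none passed. In the 12 libraries they lay between 0.13 and 0.75 with a median of 0.40 and a lowest adjusted p of 0.107, and in the 14 between 0.02 and 0.64 with a lowest adjusted p of 0.343. The value of 0.75 belongs to 1455917_at, which read 8.60, 10.31 and 8.99 in Tfr1-null libraries and 8.99, 8.79, 8.21 and 8.64 in controls 1 to 4. Without Tfr1-null 10 weeks 2, which stood above all others, it was 0.24 (adjusted p = 0.698). The brightest, 1443970_at, read 12.50, 12.04 and 11.77 in Tfr1-null libraries and 12.44, 11.68, 11.36 and 11.93 in controls 1 to 4. The groups overlapped, and the difference was 0.44 (SE 0.21, adjusted p = 0.249). Probe set 1422329_a_at read 9.89, 9.80 and 10.15 in Tfr1-null, against 10.12, 9.44, 9.00 and 9.73 in controls 1 to 4. Without Control 10 weeks 1 its groups did not overlap, at 0.56 (SE 0.19, adjusted p = 0.118). At 3 weeks the 8 probe sets lay between -0.04 and 0.10, with 4 above 0. Probe sets of 1 gene come from the same libraries and are not independent.

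Ngfr, the p75 receptor, did not pass the test at any of its 3 probe sets. At 10 weeks 1421241_at read 6.83, 6.78 and 6.63 in Tfr1-null libraries and 6.78, 6.56, 6.68 and 6.95 in controls 1 to 4, a difference of 0.01 (SE 0.11, 95% interval -0.23 to 0.26, adjusted p = 0.961). The other 2 probe sets differed by 0.30 (SE 0.23, adjusted p = 0.502) and -0.01 (SE 0.16, adjusted p = 0.976) in 12 libraries. In the 14 the 3 lay between -0.03 and 0.29, with a lowest adjusted p of 0.496. At 3 weeks the 3 probe sets lay between -0.21 and 0.12, with a lowest adjusted p of 0.914.

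**Figure D3:**
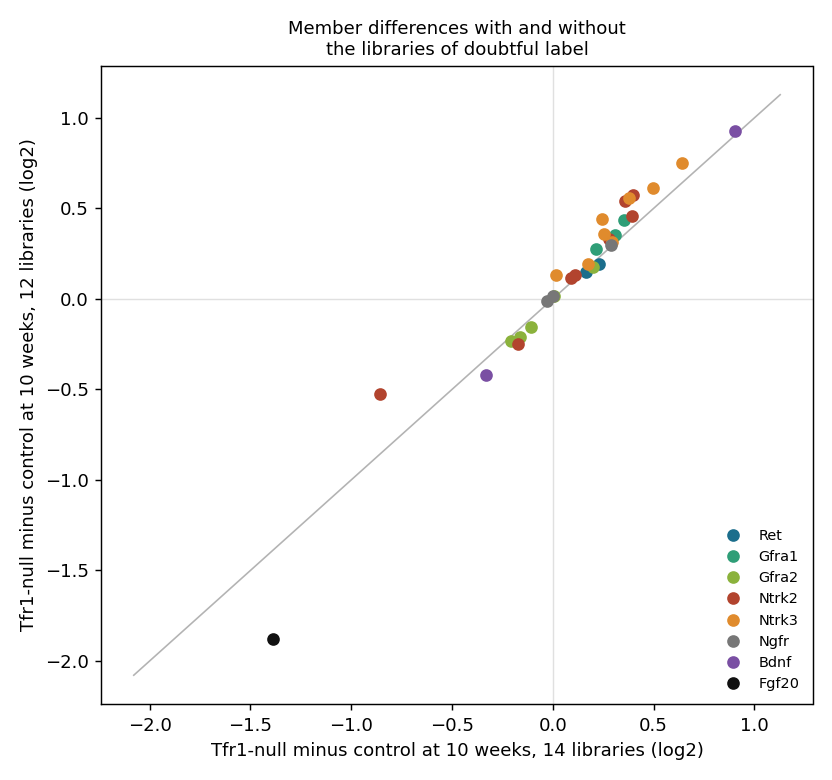
Tfr1-null minus control at 10 weeks in log2 units for the 32 member probe sets, with the 14 libraries as labelled (x axis) and with 12 libraries (y axis), where the line marks equal values. Fgf20 lay at -1.39 and -1.88, and the Ntrk2 probe set at lower left, 1435196_at, at -0.86 and -0.53.

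Marker genes of the tissue were read in the same libraries. All 12 markers of dopaminergic neurons, among them Th and Slc6a3, were above background in each of the 14 libraries. Their summed level at 3 weeks ran from 16.30 to 16.36 in Tfr1-null and from 16.43 to 16.46 in control in the 12 libraries, so the groups did not overlap at either age. Tfr1-null 3 weeks 1 had 16.42. Of the 12 markers, Foxa1 fell by 0.86 (adjusted p = 0.000490) and Drd2 by 0.85 (adjusted p = 0.00338) at 10 weeks in the 12 libraries. At 3 weeks 0 of the 12 markers passed the test. With the 14 libraries neither passed, at -0.68 (adjusted p = 0.0697) for Foxa1 and -0.58 (adjusted p = 0.206) for Drd2. In such samples, fewer cells of a type and less RNA per cell cannot be told apart.

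Markers of other cells were present too, and no library of the input lysate was analysed here. Microglial markers summed to 12.32 to 12.97 in Tfr1-null and 11.55 to 12.22 in control at 10 weeks in the 12 libraries, with no overlap, but Control 10 weeks 1 had 13.12, above every Tfr1-null library. Of those 10 markers Cd68 rose at both ages, by 2.01 (adjusted p = 0.000215) at 3 weeks and 3.87 (adjusted p = 1.03e-06) at 10 weeks in the 12 libraries, and the other 9 did not pass. With the 14 libraries Cd68 did not pass, at 1.52 (adjusted p = 1.00) at 3 weeks and 3.03 (adjusted p = 0.0832) at 10 weeks. Astrocyte markers summed to 14.96 to 15.25 in Tfr1-null and 14.79 to 15.08 in control at 10 weeks in the 12 libraries, which overlap, and to 15.27 in Control 10 weeks 1. Of the 10 only Sox9 passed the test, higher by 1.14 (adjusted p = 0.0473) in the 12 libraries, with an adjusted p of 0.158 in the 14. The median difference of the 10 astrocyte markers at 10 weeks was 0.32 in the 12 libraries and 0.16 in the 14. Of 5 GABAergic markers Slc32a1 rose by 0.70 (adjusted p = 0.0114) in the 12 libraries, with overlapping sums and an adjusted p of 0.235 in the 14. The lists for oligodendrocytes, their precursors, endothelial cells with pericytes, and glutamatergic, cholinergic, and serotonergic and noradrenergic neurons had 0 markers past the test at either age, and their sums overlapped. Tbr1 was not above background in any library, and Chat was in 7 of 14. The part that these other cells have in the member values was not tested.

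Other genes of trophic signalling, 143 measured in 7 lists beside the members, were read at the brightest probe set of each gene. Calls were counted at an adjusted p under 0.05. In the 12 libraries 22 of the 143 (15.4%) were called higher and 2 (1.4%) lower in Tfr1-null at 10 weeks. Of all genes, 3.64% were called higher and 5.1% lower. The median difference of the 143 was 0.15, against -0.01 over all genes. The lists were chosen with earlier results of these data known, so both comparisons with all genes are a description. The part of the microglial and dopaminergic marker differences given above in these counts was not tested. With the 14 libraries as labelled 0 of the 143 were called higher and 1, Gfra4, was called lower. The 24 genes called in the 12 libraries all had the same sign there, with adjusted p of 0.0468 to 0.472, and in 19 of the 24 Control 10 weeks 1 lay nearer to the Tfr1-null mean than to that of the other controls. At 3 weeks 1 of the 143 was called higher and 0 lower in the 12 libraries, and 0 passed in the 14. Of all genes, 0.434% were called higher and 0.879% lower in those 12 libraries.

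In each list below, rose and fell mean passed at an adjusted p under 0.05. Among trophic ligands and receptors of other families, 8 of 36 rose and 0 fell at 10 weeks in the 12 libraries. For this list and those that follow, the shares of all genes called there were 3.64% higher and 5.1% lower. With the 14 libraries 0 genes rose in any of the lists. Vegfa, the vascular growth factor, read 10.87, 10.20 and 10.99 in Tfr1-null libraries and 10.21, 8.59, 9.06 and 8.80 in controls 1 to 4, and rose by 1.87 (SE 0.19, adjusted p = 0.000490). It was also the 1 list gene that rose at 3 weeks, by 1.37 (SE 0.19, adjusted p = 0.00729), reading 9.90, 10.02 and 10.07 in Tfr1-null libraries 2 to 4 and 8.50 to 8.71 in control. The library titled Tfr1-null 3 weeks 1 read 8.54, within the control range. Vegfa is a known target of hypoxia-inducible factors. Lifr, a receptor subunit for leukemia inhibitory factor, rose by 1.31 (SE 0.20, adjusted p = 0.00475), Met, the hepatocyte growth factor receptor, by 1.12 (SE 0.20, adjusted p = 0.0102) and Pdgfb, a platelet-derived growth factor chain, by 0.63 (SE 0.11, adjusted p = 0.00825). The other 4 rose by 0.43 to 0.84.

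Of the 7 GDNF family genes beside the members, 1 fell at 10 weeks and 0 rose. Gfra4, the co-receptor that prefers persephin, read 8.49, 8.95 and 9.10 in Tfr1-null libraries and 9.51, 9.77, 9.45 and 9.78 in controls 1 to 4. All 4 controls, the doubtful library included, lay above every Tfr1-null library. It fell by 0.82 (SE 0.16, adjusted p = 0.0135) in the 12 libraries and by 0.78 (SE 0.14, adjusted p = 0.0468) in the 14. Gdnf itself was not above background in any of the 14 libraries.

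Of 12 genes of neurotrophins and partners of p75, 2 rose at 10 weeks in the 12 libraries. Tnfrsf19 (TROY), a partner of the Nogo receptor complex, read 9.03, 8.44 and 9.51 in Tfr1-null libraries and 9.14, 7.54, 7.60 and 7.47 in controls 1 to 4, and rose by 1.45 (SE 0.25, adjusted p = 0.00719). Control 10 weeks 1 lay within the Tfr1-null range. Lingo1, another subunit of that complex, rose by 0.69 (SE 0.17, adjusted p = 0.0401). Of 12 fibroblast growth factor genes beside Fgf20, 1 rose: the receptor Fgfr1, at 11.38, 11.35 and 11.55 in Tfr1-null and 10.95, 10.78, 10.84 and 11.09 in controls 1 to 4, by 0.52 (SE 0.11, adjusted p = 0.0196). At 3 weeks 0 of either list passed. The gene with the smallest p there was Rtn4r in the first list, at 0.41 (adjusted p = 0.315), and Fgf1 in the second, at -0.84 (adjusted p = 0.170).

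Among 37 adaptors and relay kinases downstream of receptor tyrosine kinases, 6 rose and 1 fell at 10 weeks in the 12 libraries. The Src family kinase Fyn rose by 0.70 (SE 0.09, adjusted p = 0.00212), reading 11.79, 11.66 and 11.93 in Tfr1-null and 11.51, 11.03, 11.11 and 11.13 in controls 1 to 4. Pik3ca, a catalytic subunit of phosphoinositide 3-kinase, rose by 0.79 (SE 0.15, adjusted p = 0.0139), the adaptor Shc2 by 0.62 (SE 0.12, adjusted p = 0.0147) and Src by 0.72 (SE 0.16, adjusted p = 0.0254). The gene that fell was Frs3, an adaptor of fibroblast growth factor and Trk receptors, by 0.41 (adjusted p = 0.0303), named after its value was seen. At 3 weeks 0 passed, and the smallest p was that of Sh2b2, at 0.66 (adjusted p = 0.278).

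Feedback inhibitors of these receptors and transcripts that trophic factors are known to induce also included genes that rose at 10 weeks, 3 of 23 and 2 of 16 in the 12 libraries, and none that fell. The phosphatase gene Dusp1 read 12.74, 12.66 and 12.92 in Tfr1-null and 12.54, 11.60, 11.55 and 11.42 in controls 1 to 4, and rose by 1.25 (SE 0.13, adjusted p = 0.000642). Lrig1, which promotes breakdown of receptor tyrosine kinases, rose by 0.85 (SE 0.17, adjusted p = 0.0171) and Lrig2 by 0.64 (SE 0.12, adjusted p = 0.0107). Egr1, an immediate early gene, rose by 1.85 (SE 0.22, adjusted p = 0.00110) and Vgf, a secreted granin, by 0.98 (SE 0.18, adjusted p = 0.00959). Many other stimuli induce both. At 3 weeks 0 passed, with the smallest p at Spry3 in the first list (0.66, adjusted p = 0.0847) and at Nptx2 in the second (-0.69, adjusted p = 0.461).

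**Figure D4:**
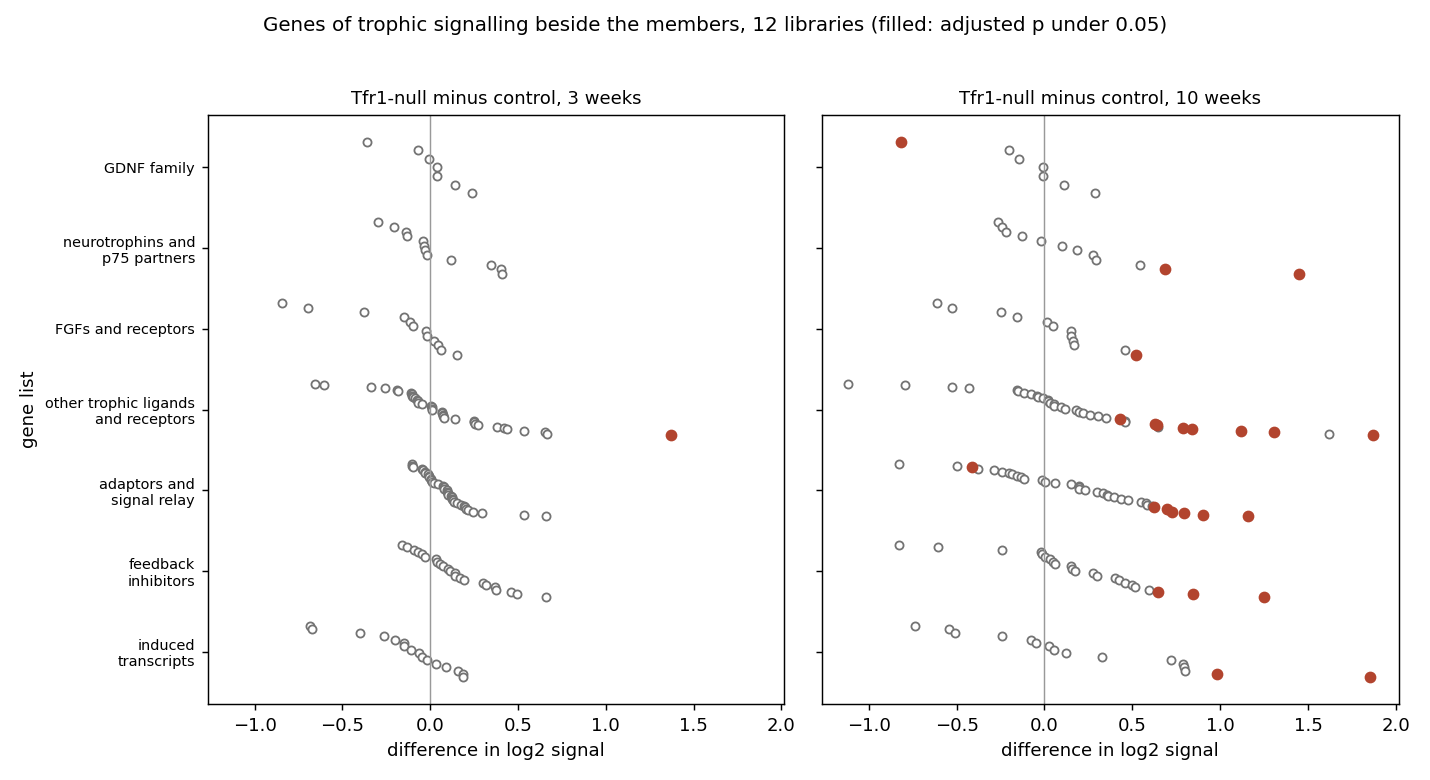
Difference in log2 signal between Tfr1-null and control (x axis, Tfr1-null minus control) for each measured gene of the 7 trophic signalling lists (y axis) at 3 weeks (left) and 10 weeks (right), 12 libraries. Filled points passed at an adjusted p under 0.05: Vegfa at 3 weeks, and 22 higher and 2 lower genes at 10 weeks.

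The genes most like 4 members, by Pearson correlation with the brightest probe set over the 14 libraries after the mean of each age was subtracted, were taken as a description. All values share these libraries, including those of doubtful label. Fgf20 was closest to Pde2a (r = 0.98), a phosphodiesterase gene, Ankrd29 (0.97) and Ebpl (0.97). Pde2a read 11.80, 12.22 and 11.79 in Tfr1-null at 10 weeks and 11.99, 12.84, 12.89 and 13.05 in controls 1 to 4, with Control 10 weeks 1 again inside the Tfr1-null range. Bdnf was closest to Snrnp40 (0.99), Dmtn (0.99) and Erlin2 (0.99), and all of these stood high in the library Tfr1-null 10 weeks 1. Snrnp40 read 12.38 there and 9.55 and 9.73 in the other 2 Tfr1-null libraries of that age, against 9.35 to 9.62 in control. Ntrk2 was closest to Ranbp6 (0.97), Tcaf1 (0.93) and Crebbp (0.91), and Gfra1 to Necab1 (0.94), Ddx10 (0.94) and Nkrf (0.91). The brightest probe sets of Bdnf and Ntrk2, used here, are not those that passed the test. Among libraries of 10 weeks, Ntrk2 and its closest genes all read lowest in Control 10 weeks 3 and highest in Control 10 weeks 4. Tcaf1 read 11.59 and 13.34 in them.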

How the data were processed

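Values were the deposited log2 signals of 14 Affymetrix arrays, which the authors made by RMA in Partek 6.5, per the submitters' processing notes. RNA (50 ng) was amplified with the NuGEN Ovation V2 system, per the labels' protocols. Probe sets were named from the platform annotation: of 45101, 64 controls were left out, and of 45037 tested, 34945 carried 1 symbol, 932 several and 9160 none. A gene is represented by its brightest probe set where 1 value is given.

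Differences were tested with limma 3.58.1 in R 4.3.3 (lmFit and eBayes, 4 group means, 1 shared spread per probe set), with Benjamini-Hochberg adjustment over all probe sets and an adjusted p under 0.05 as the threshold. SE is the moderated standard error. The fit was tested on simulated data. The members, lists and the fit to 12 libraries were chosen with earlier results of these data known, the latter because of Tfrc values. All members are named, and of each list the called genes with the smallest p, up to 4 per age, or the 1 with the smallest p. A group whose libraries all lay under the 25th percentile of their arrays was taken as not above background, a limit chosen after the data were seen. Deviations of same-numbered libraries correlated at -0.05 to 0.15, so the replicate numbers were not taken as pairs. The number of arrays limits the precision. Alternatives were array weights, each age alone, quantile normalization, a filter on dim probe sets, 1 probe set per gene, a replicate block and each library left out. Python 3.11.15 with pandas 2.3.3 and matplotlib 3.10.9 was used for sequences and figures.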

Additional observations from a re-analysis of the deposited data

Results flagged for a closer look

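Each of 32 probe sets in both groups of 4 libraries, 64 tests in all, was examined for a library far from the others. Such a library was found in 4 of the 64, a share near the 1 in 20 or so that chance gives. Fgf20 read 7.39 in Control 10 weeks 1 and 9.21 to 9.49 in the other controls. At Gfra2 1423007_a_at Tfr1-null 3 weeks 4 read 10.82 and the others all 10.60, and at Gfra2 1425578_a_at Tfr1-null 3 weeks 1 read 9.28 and the others 9.57 to 9.61. At Ntrk2 1435305_at Tfr1-null 3 weeks 3 read 11.46 and the others 11.64 to 11.67. Of these 4 libraries, 2 are those of doubtful label. The Fgf20 effect differed between 10 and 3 weeks by -1.57 in the 12 libraries (limma adjusted p = 0.0419). Age and the sex pattern of the libraries cannot be told apart in this difference.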

How the results depend on the processing

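At 10 weeks the count of member probe sets that passed was 0 with 14 libraries and 0 to 3 with 1 library left out, the 3 without Control 10 weeks 1. With 12 libraries it was 3, and 1 with array weights, 1 with each age alone, 1 with 1 probe set per gene (by construction), 0 with a replicate block and 3 to 7 with 1 library left out, the 7 without Control 10 weeks 4. For the difference between ages it was 0 with 14 libraries (0 to 1 with 1 left out) and 1 with 12, but 0 with quantile normalization, 0 with a replicate block and 0 to 1 with 1 left out. At 3 weeks it was 0 in every setting tried. Fgf20 passed at 10 weeks in 17 of 18 settings of the 12 libraries, with differences of -2.08 to -1.74, and missed with the replicate block (-1.81, adjusted p = 0.121). Bdnf 1422169_a_at and Ntrk2 1420838_at each passed in 14 of 17 and missed with array weights, each age alone and the replicate block. Among the settings counted are those that left out a 3-week library, which can change the spread but not a 10-week difference. Among the brightest probe set of each gene, signs turned at 10 weeks for small values. Ngfr 1421241_at was -0.010 with array weights in either fit and -0.057 to 0.071 (14 libraries) or -0.069 to 0.12 (12) with 1 left out. Gfra2 1425579_at was 0.044 (14) and 0.18 (12) with the replicate block, and -0.24 to 0.044 (14) or -0.36 to 0.051 (12) with 1 left out. Ntrk2 1435305_at was -0.089 to 0.23 (14) or -0.14 to 0.33 (12) with 1 left out. Signs of other member probe sets turned too, and not only for small values. In the 12 libraries Ntrk2 1435196_at was -0.53, but 0.21 without Control 10 weeks 2. The cause of these shifts was not tested. Over all probe sets the count at 10 weeks was 3045 with 12 libraries, 1054 with array weights, 223 with each age alone, 2015 with 1 probe set per gene and 4 with the block. At 3 weeks it was 359, 1825 with array weights, 918 with each age alone, 0 with the block and 184 at the lowest with 1 library left out. With 14 libraries it was 170 at 10 weeks, 4 with array weights, 2 with each age alone, 0 with the block, 2990 without Control 10 weeks 1 and 3 without Control 10 weeks 3, and at 3 weeks 0, or 30 without Tfr1-null 3 weeks 1. For the difference between ages it was 63 with 12 libraries, 0 with the block and 9 to 93 with 1 left out, and with 14 libraries 0, or 69 without Control 10 weeks 1.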
